A study of Mus musculus with 4 samples.

Results

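The genes studied here encode 9 subunits of the Polycomb complexes, of 34125 RefSeq genes with a measured hippocampus CpG. Ezh1, Ezh2, Eed, Suz12 and Jarid2 belong to Polycomb repressive complex PRC2, and Bmi1, Rnf2, Cbx2 and Cbx8 to PRC1. In the hippocampus their CpG sites were all sites from 1 kb before the start of the gene to its end with at least 5 reads in both libraries, 1292 of 2226271 CpG sites. In the frontal cortex they were the listed CpGs whose promoter, exon or intron column named a member, 2 of 9731. The rule for their sites used position and gene names and no measured value.

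The Polycomb complexes keep developmental genes silent by marking chromatin. PRC2 methylates histone H3 at K27, with Ezh1 or Ezh2 as the catalytic subunit and Eed and Suz12 as the core around it, while Jarid2 helps to bring the complex to its targets. PRC1 adds ubiquitin to histone H2A through Rnf2 and its partner Bmi1, and Cbx2 and Cbx8 bind the methylated H3K27. In the developing brain these complexes are known for controlling when neural progenitors switch from one fate to the next. DNA methylation at CpGs is a separate mark, usually sparse at the CpG-rich promoters of active genes and dense in the rest of a gene.

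DNA came from female wild type CD-1 mice, an outbred stock, whose mothers carried an osmotic pump that released estriol (E3, 50 µl of 0.46 mg/ml in DMSO) or DMSO alone (CT) for 7 days from gestation day 9. The labels give an age of 8 weeks without saying whether it is that of the offspring at sampling, and the mothers were bred at the same age. Each tissue had 1 E3 library and 1 CT library, the number of mice behind a library is not stated, and tissue identity could not be checked because DNA methylation alone was measured. Every test therefore compares 2 libraries and not the treatments, and no value has a replicate check. The Methyl-MiniSeq assay reads bisulfite-treated DNA near the cut sites of TaqαI and MspI, and each strand of a CpG is a site of its own in the hippocampus data. Member sites had a median of 27 reads in E3 and 10 in CT, against 27 and 9 over all CpG sites, so a single CT read often weighed 10 percentage points. Methylated and unmethylated reads of a site were compared by a 2-sided Fisher's exact test, and a site was called where p, unadjusted, was under 0.05 and the libraries were 10 points or more apart. A level of 0% means that no methylated read was counted. It still allows a true level of about 3 divided by the depth, which is 30% at 10 reads and 11.1% at 27. Intervals are 95% Wilson intervals and cover counting error only, since reads are not independent molecules and neighbouring sites share reads. Some sites had far more reads than neighbours on the same strand. Whether reads were counted more than once there was not tested.

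The stretches shown here are those on which the results turn. The capitals mark the CpGs called between E3 and CT, or listed for the frontal cortex in the first pair of stretches, and all are read 5′ to 3′ on the plus strand of mm10 from the RefSeq genome. Untranslated exons are cut to a length of 30 bases.
Ezh2, intron near the start, frontal cortex, chr6:47594160-47594261: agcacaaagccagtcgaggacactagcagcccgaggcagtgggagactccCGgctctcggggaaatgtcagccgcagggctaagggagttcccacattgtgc
Cbx2, intron, frontal cortex, chr11:119024064-119024165: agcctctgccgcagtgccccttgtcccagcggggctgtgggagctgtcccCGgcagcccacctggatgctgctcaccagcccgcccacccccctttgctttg
Ezh1, intron, lower in E3, chr11:101225602-101225663: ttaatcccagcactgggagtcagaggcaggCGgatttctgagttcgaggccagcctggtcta
Ezh2, intron, lower in E3, chr6:47593758-47593850: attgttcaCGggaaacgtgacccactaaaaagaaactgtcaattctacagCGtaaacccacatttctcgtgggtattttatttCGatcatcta
Ezh2, untranslated exon, lower in E3, chr6:47594946-47594975: cgccaccgccacCGcCGcCGccgggactcc
Eed, coding exon, higher in E3, chr7:89954949-89955031: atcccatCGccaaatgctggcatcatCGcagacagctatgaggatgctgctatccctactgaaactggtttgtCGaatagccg
Eed, upstream, lower in E3, chr7:89981351-89981611: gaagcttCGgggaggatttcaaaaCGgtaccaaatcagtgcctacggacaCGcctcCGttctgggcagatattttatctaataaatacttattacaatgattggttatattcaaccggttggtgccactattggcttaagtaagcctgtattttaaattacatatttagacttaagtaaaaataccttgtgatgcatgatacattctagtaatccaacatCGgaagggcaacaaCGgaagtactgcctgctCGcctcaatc
Suz12, upstream, higher in E3, chr11:79992863-79992963: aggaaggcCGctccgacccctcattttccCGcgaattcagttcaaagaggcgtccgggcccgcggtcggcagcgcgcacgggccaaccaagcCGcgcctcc
Jarid2, intron, higher in E3, chr13:44869627-44869867: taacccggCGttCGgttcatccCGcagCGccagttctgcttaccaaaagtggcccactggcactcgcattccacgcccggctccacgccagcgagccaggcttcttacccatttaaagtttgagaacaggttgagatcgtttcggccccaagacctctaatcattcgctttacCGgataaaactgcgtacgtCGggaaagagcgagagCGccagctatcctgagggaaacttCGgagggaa
Rnf2, intron, higher in E3 on both strands, chr1:151477574-151477635: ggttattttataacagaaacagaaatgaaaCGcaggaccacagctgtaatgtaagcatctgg
Cbx2, coding exon, higher in E3, chr11:119028900-119028985: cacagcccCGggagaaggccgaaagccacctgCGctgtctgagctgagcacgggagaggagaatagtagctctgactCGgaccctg
Cbx8, untranslated exon, lower in E3, chr11:119037894-119037923: gagatttttgtccacaggacaCGcacacac
Cbx8, untranslated exon, higher in E3, chr11:119037970-119037999: ctgtggtCGgggagaactgcggcccactca
Cbx8, coding exon, higher in E3, chr11:119039401-119039442: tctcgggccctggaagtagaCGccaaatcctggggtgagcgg

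Across the 9 genes, 97 of 1292 hippocampus CpG sites were called, 52 higher and 45 lower in E3. That is 7.51% of member sites, against 11.0% of all CpG sites. By direction, 4.02% of member sites were higher and 3.48% lower, against 6.18% and 4.83% of all sites. With p-values adjusted over all CpG sites by the Benjamini-Hochberg method, 25 member sites (1.93%) passed, 16 higher and 9 lower, against 3.35% of all sites. Mean methylation of member sites was 24.7% in E3 and 23.5% in CT, lower than the 50.8% and 50.9% over all sites, and 784 of the 1292 sites lay within 1000 bases of the gene's own start. The called member sites differed by a median of 40.0 points, with a range from 12.1 to 90.8, against a median of 45.7 points for all called sites. With at least 20 reads in both libraries, 10 sites were higher and 11 lower among 189. Of the called member sites, 33.0% had under 10 CT reads, against 38.4% of all called sites.

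Over the 9 genes together, methylation was low around the starts and high at sites beyond 5000 bases. Within 500 bases of the start, 515 member sites had a mean of 2.43% ± 8.43 in E3 and 2.26% ± 11.2 in CT (SD over sites). From there to 1000 bases the means were 6.28% and 5.41%, up to 5000 bases 22.5% and 19.1%, and beyond 5000 bases 84.4% and 82.9%. Both libraries showed this order. Bmi1 and Cbx8, which had 2 sites and no site beyond 5000 bases, had lower levels outside their promoters than the other genes as means over sites. The promoters, which reached 1000 bases to either side of the start, were rich in CpGs. Their ratio of observed to expected CpGs ran from 0.636 in Cbx8 to 0.988 in Bmi1, with 0.720 in Ezh1, against a median of 0.551 over all promoters. In 681 of the 784 promoter sites (86.9%) both libraries were under 10% methylated, and in 528 both were at 0.

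**Figure D1:**
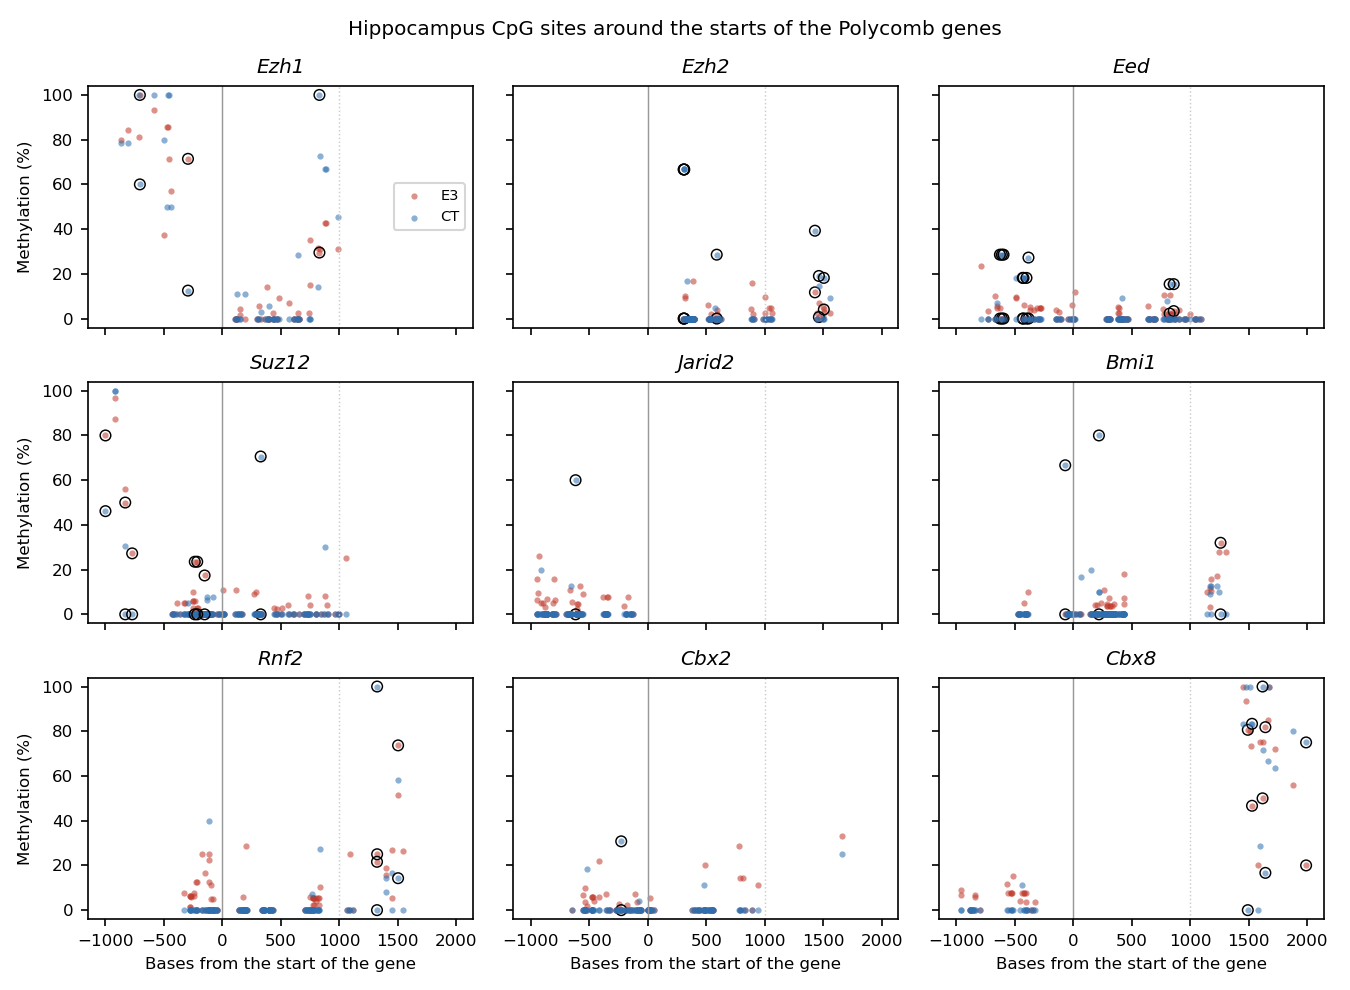
CpG methylation in percent (y axis) of hippocampus sites from 1000 bases before to 2000 bases after the start of each gene (x axis, direction of transcription), in E3 (red) and CT (blue), with called sites ringed in black and a dotted line at 1000 bases. Most sites near the starts lay close to 0 in both libraries, while Ezh1 and Suz12 had methylated sites upstream of the start.

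No member promoter was called when the reads of its sites were summed (0 of 9), against 9.67% of all 20169 promoters. The threshold for promoters was 10 points together with an adjusted p under 0.05. Single promoter sites were called in 27 of 784 cases (3.44%), against 5.45% of all promoter sites. Of these 19 were lower and 8 higher in E3, and over all promoter sites 3.69% were lower and 1.75% higher. In 16 of the 19 lower sites E3 had no methylated read. The same share over all promoter sites called lower was not counted, and 681 of the 784 member promoter sites were under 10% in both libraries.

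Among the PRC2 promoters, that of Ezh1, a catalytic subunit that is the usual form in cells that no longer divide, was the most methylated and had the largest difference. It stood at 12.3% in E3 (1656 reads, 95% interval 10.8 to 14%) and 20.7% in CT (590 reads, 17.6 to 24.1%), a difference of -8.36 points (Fisher's exact test, adjusted p = 2.3e-05). That is short of 10 points, and the difference was smaller within 500 bases of the start (-4.04 points) and as a mean over sites (-1.45 points). Within 500 bases of the start the mean over its sites was higher in E3 (14.4% and 13.7% in CT), opposite to the summed reads. Beyond 500 bases the means were 30.9% and 35.3%. Summed reads weigh a site by its depth. It was 7 in E3 and 8 in CT at 101226902, with 57.1% and 50% methylation, and 84 and 18 at 101225993, with 0% in both. Ezh2, the main catalytic subunit of dividing cells, had 1.33% in E3 and 2.84% in CT (adjusted p = 0.044, exact test), and Eed, the subunit that binds methylated H3K27, had 1.85% and 2.97% (adjusted p = 0.064, exact test). The promoter of Suz12, a scaffold of the complex, stood higher in E3, at 5.29% against 2.11% (adjusted p = 3.5e-09, exact test). Jarid2 had 1.85% in E3 and 0.424% in CT (adjusted p = 0.0020, exact test), a difference of 1.43 points that was 0.193 points with the starts of all its transcripts (adjusted p = 0.77, exact test).

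The PRC1 promoters were at most 4.90% methylated in either library. Rnf2, the ubiquitin ligase, had 2.57% in E3 and 0.545% in CT (adjusted p = 1.3e-04, exact test). The readers of methylated H3K27 were also higher in E3, Cbx2 at 1.88% against 0.622% (adjusted p = 0.0060, exact test) and Cbx8 at 4.90% against 0.485% (adjusted p = 0.0082, exact test). Bmi1, the partner of Rnf2, had 1.03% and 1.90% (adjusted p = 0.127, exact test), a difference that turned to 0.47 points higher in E3 when the starts of all its transcripts were used. In all, 5 member promoters were higher and 4 lower in E3, and in 7 of the 9 the adjusted p was under 0.05 by Fisher's exact test on the summed reads. The share of all promoters that passed this p alone was not counted, so the 7 cannot be read as a trait of these genes. The promoter p-values count a read once at each site it covers and are too small. The sums also weigh each site by its depth, which differed between the libraries from site to site. Within 500 bases of the start the adjusted p of the exact test was 0.25 for Jarid2, 0.50 for Cbx8 and 0.070 for Cbx2, and with at least 10 reads per site that of Ezh2 was 0.52. The Suz12 difference of 3.19 points was 0.87 within 500 bases. Over all promoters the difference had a median of 0.264 points and a range from -6.89 to 6.19 between the tenth and ninetieth percentiles.

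**Figure D2:**
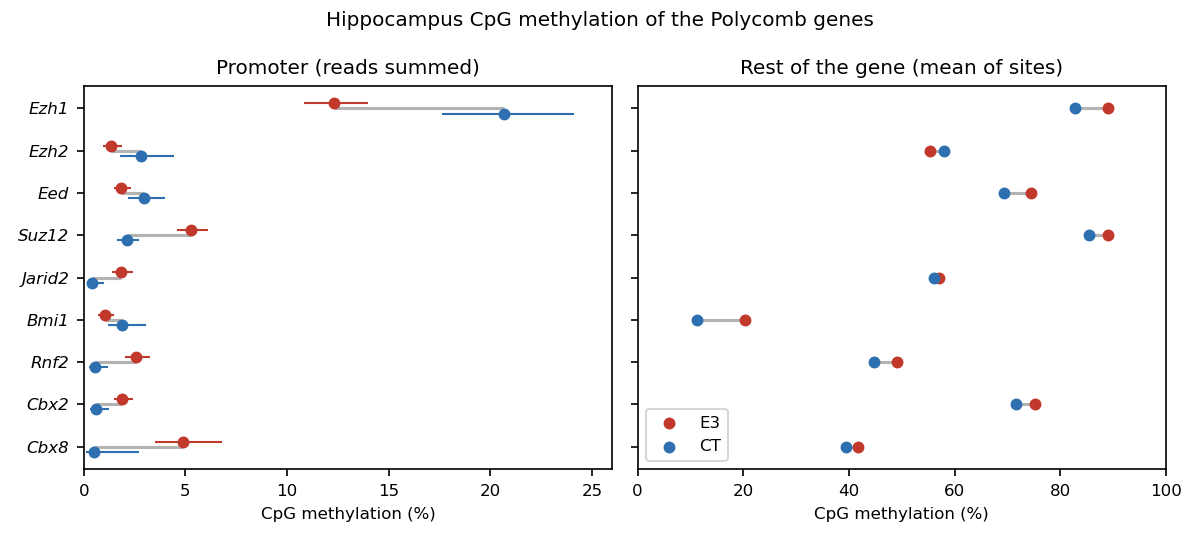
CpG methylation in percent (x axis) of each gene (y axis) in the hippocampus, for the promoter with reads summed (left, bars are 95% Wilson intervals) and for the rest of the gene as the mean over sites (right, no interval), in E3 (red) and CT (blue). Ezh1 had the highest promoter level in both libraries, and 8 of the 9 genes had a higher mean in E3 outside the promoter. Medians over sites, not plotted, were lower in E3 in some of these genes.

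Outside the promoters the sites of the 9 genes were called about as often as elsewhere. Of 508 sites 70 were called (13.8%), 44 higher and 26 lower in E3, against 13.4% of all gene body sites (7.88% higher and 5.54% lower). The mean over sites was higher in E3 in 8 of the 9 genes. Bmi1 differed most, with 20.3% ± 21.8 in E3 and 11.3% ± 21.7 in CT (SD over 40 sites), 8.93 points apart. Ezh1 followed, at 89.1% and 82.8% (25 sites, 6.29 points). Over the 12877 genes with at least 20 such sites the difference had a median of 0.0183 points and ran from -5.30 to 5.67 between the tenth and ninetieth percentiles, and Bmi1 lay above that range. Ezh1 lay above it as a mean over sites, but not with reads summed (4.89 points) or with at least 10 reads (2.66 points on 10 sites). Eed was at 74.5% and 69.4%, Rnf2 at 49.1% and 44.7%, Cbx2 at 75.3% and 71.7%, Suz12 at 89.0% and 85.5%, Cbx8 at 41.8% and 39.4%, and Jarid2 at 57.0% and 56.2%. Ezh2 was the exception among the means, with 55.3% in E3 and 58.0% in CT. Medians over sites were lower in E3 in Ezh1 (93.5% against 100%), Eed, Suz12, Jarid2 and Cbx2. They were higher in Ezh2 (87.0% against 80.9%), Bmi1, Rnf2 and Cbx8. The means and medians have no test, since each group had 1 library. The mean differences shifted when reads were summed over sites, to -14.2 points in Ezh2 and 22.8 in Rnf2. In Jarid2 the mean difference was -3.17 points on the 37 sites with at least 20 reads.

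By complex, 64 of 810 PRC2 sites and 33 of 482 PRC1 sites were called. In promoters the numbers were 24 of 468 for PRC2 and 3 of 316 for PRC1, and outside them 40 of 342 and 30 of 166, beside 5.45% of all promoter and 13.4% of all gene body sites. The complexes were not compared by a test. Cbx8 had the largest share of called sites of the 9 genes, 17 of 96 (17.7%), and Cbx2 the smallest, 4 of 128 (3.13%). The share was 10.9% in Eed (15 of 138), 8.04% in Jarid2 (25 of 311), 7.59% in Ezh1 (6 of 79), 6.96% in Ezh2 (8 of 115), 5.99% in Suz12 (10 of 167), 5% in Bmi1 (7 of 140) and 4.24% in Rnf2 (5 of 118).

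**Figure D3:**
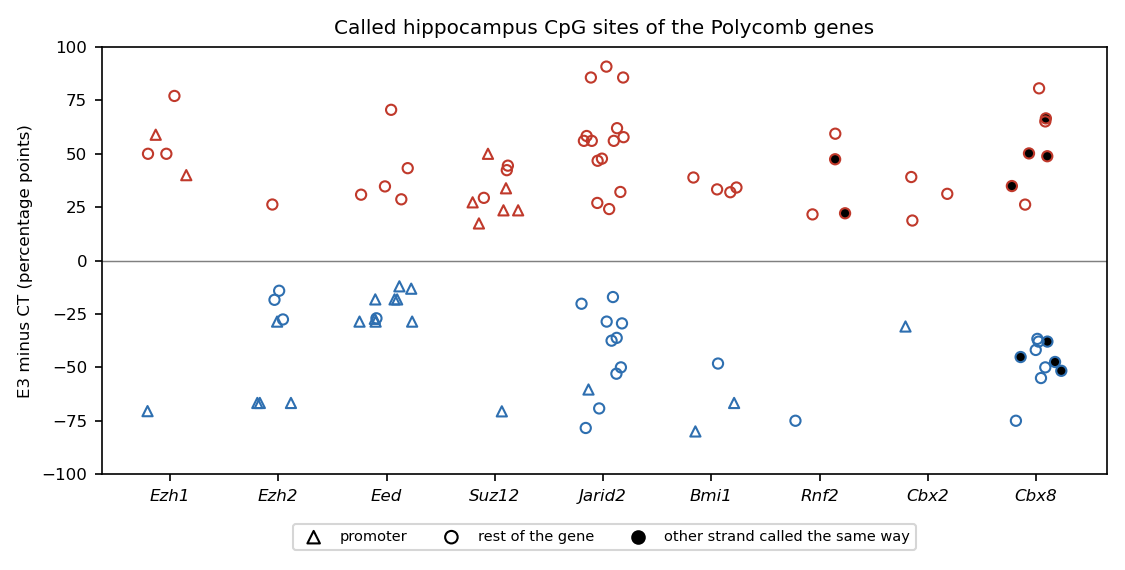
Difference in methylation, E3 minus CT in percentage points (y axis), at each of the 97 called hippocampus sites by gene (x axis, points spread sideways for legibility), with triangles for promoter sites, circles for the rest of the gene, and black filling where the other strand of the same CpG was called in the same direction. Filled points occurred in Cbx8 and Rnf2 alone.

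The strands of a CpG are read from separate fragments, which gives a second reading of a called site. The other strand was measured at 55 of the 97 called member sites. It was called in the same direction at 10 (18.2%) and in the opposite direction at 2, and had a difference of the same sign at 24 (43.6%). An other strand without any difference, as at several Eed promoter sites, was not counted as the same sign. The remaining sites were therefore not all of opposite sign. Over all called sites with both strands measured, 15.5% had the same call and 43.9% the same sign. The 10 agreeing sites were 8 in Cbx8 and 2 in Rnf2. Each such CpG was counted once from either strand, here and over all sites, so these are pairs and not 10 separate CpGs. The called sites formed 11 runs of at least 3 sites of the same direction within 200 bases, 6 higher and 5 lower. The runs held 46 of the 97 sites. Runs among all called sites were not counted, and neighbouring sites share reads. The number of runs therefore cannot be read as a trait of the member genes. The runs of Cbx8 were the only ones with the same call on the other strand.

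In Cbx8 the runs lay side by side in the untranslated part of the last exon and went in opposite directions. At chr11:119037890-119037928, 5 of 5 measured sites were lower in E3, at 44.8 to 62.1% of 29 to 31 reads, against 92.3 to 100% of 9 to 13 reads in CT. The other strand had the same call at 4 of the 5. At chr11:119037977-119038032, 4 of 10 sites were higher in E3, at 49.2 to 89.7% of 29 to 61 reads against 11.1 to 23.1% of 9 to 26 reads, and all 4 had the same call on the other strand. At position 119038031, the plus strand had 89.7% of 29 reads in E3 (95% interval 73.6 to 96.4%) and 23.1% of 13 in CT (8.18 to 50.3%), with an adjusted p of 0.0038 from Fisher's exact test. The minus strand of that CpG had 61.3% of 31 reads and 11.1% of 9. In the lower run, the CpGs at 119037890 and 119037915 had the same read numbers on both strands. Whether the runs rest on the same reads was not tested. Among the called sites of either run the E3 and CT values did not overlap. These sites were selected for a difference in that direction, so this is no added support. The plus strand site at 119037977, in the higher run, had 71.9% of 57 and 23.1% of 26 reads (adjusted p = 0.0037, Fisher's exact test). Its depth was above the 29 and 13 reads at 119038031, and repeat counting of reads was not tested.

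**Figure D4:**
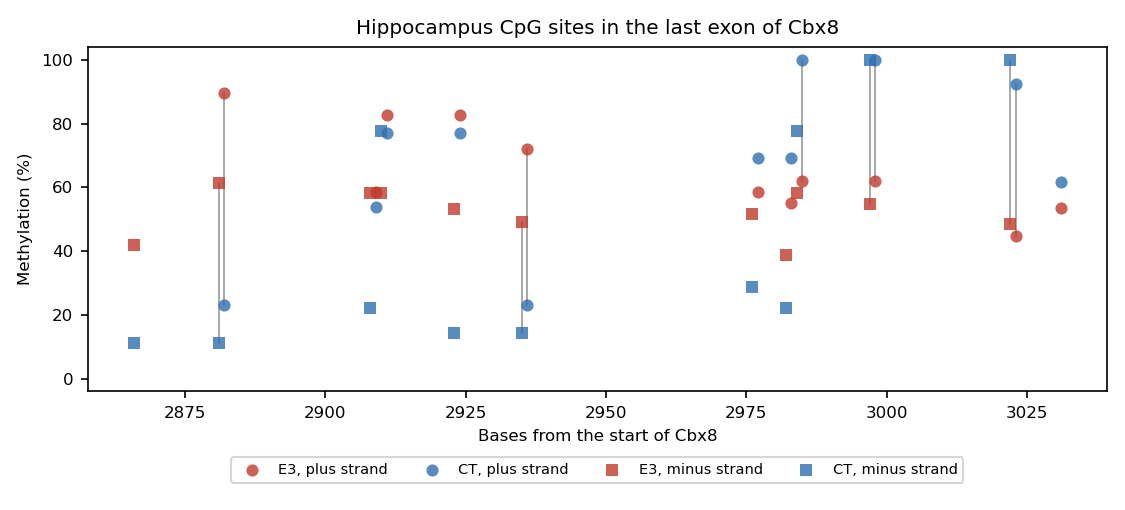
CpG methylation in percent (y axis) of the hippocampus sites in a stretch of the untranslated last exon of Cbx8 that holds both runs, by distance from the start of the gene in bases (x axis), in E3 (red) and CT (blue), with circles for the plus and squares for the minus strand and grey lines at called sites. Within the stretch plotted, called sites on the left were higher in E3 and those on the right lower.

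Other called sites of Cbx8 had 1 strand only or a second strand that differed. In a coding exon at 119039422, 80.6% of 31 reads were methylated in E3 and 0% of 12 in CT (adjusted p = 2.9e-04, Fisher's exact test), and the other strand was not measured. In the untranslated exon at 119036705, E3 had 25% of 48 reads and CT 100% of 10 (adjusted p = 0.0016, Fisher's exact test), but the other strand had 15.0% of 40 and 18.2% of 22. Cbx8 had no called promoter site among 27.

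In Rnf2 both strands of an intronic CpG were higher in E3. The plus strand at 151477604 of chromosome 1 had 94.4% of 71 reads in E3 and 72.2% of 18 in CT, and the minus strand 97.4% of 78 and 50.0% of 18 (adjusted p = 3.8e-04, Fisher's exact test). The CpG lies in sequence masked as a repeat. At 151499489, in an untranslated exon, 1 strand had 73.7% of 19 and 14.3% of 14 reads (adjusted p = 0.041, Fisher's exact test), while the other had 51.4% of 37 and 58.3% of 24. At a further CpG the strands were called in opposite directions. Its plus strand, at 151499668, had 25% of 8 reads in E3 and 100% of 6 in CT, and its minus strand 21.6% of 37 and 0% of 24.

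Ezh1 had 5 higher and 1 lower site. The lower site, in an intron at 101225633 of chromosome 11, had 29.5% of 61 reads in E3 (19.6 to 41.9%) and 100% of 14 in CT (78.5 to 100%), with an adjusted p of 2.3e-04 from Fisher's exact test. The opposite strand had 31.3% of 16 and 72.7% of 11 reads, the same direction without a call. A coding exon site at 101208222 went the other way, with 93.8% of 16 reads in E3 and 16.7% of 12 in CT (adjusted p = 0.0043, Fisher's exact test), and its other strand had 91.7% of 12 and 60.0% of 5. Of the 6 called sites, 4 lay in sequence masked as repeats, that at 101225633 among them.

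Ezh2 had 7 lower sites and 1 higher. In an intron, at chr6:47593766-47593842, 3 of 9 sites were lower in E3, at 0.671 to 11.7% of 128 to 149 reads against 18.2 to 39.3% of 21 to 28 reads in CT. This is the deepest of the runs, and its largest difference was 11.7% against 39.3% (adjusted p = 0.040, Fisher's exact test). The other strand was measured at 2 of the 3 sites and was called at neither. At 47593766 and 47593808, on the plus strand, E3 had 148 and 149 reads and CT 22 and 21. The plus strand site at 47593825 had 76 and 11. Whether reads were counted more than once in this run was not tested, and the p would then be too small. At chr6:47594958-47594964, in an untranslated exon, 3 sites had 0% of 10 reads in E3 and 66.7% of 6 in CT, with no call on the other strand. These 3 CpGs lie in masked repeat sequence. The promoter site at 47594681 had 0% of 41 and 28.6% of 14 reads, and its other strand 3.92% of 102 and 0% of 22. The 1 higher site, in a coding exon at 47551765, had 97.7% of 43 reads in E3 and 71.4% of 21 in CT.

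Eed had 10 lower sites, 9 of them in the promoter, and 5 higher ones. Upstream of the gene, at chr7:89981359-89981603, 7 of 17 sites were lower, with 0% in E3 of 32 to 64 reads and 18.2 to 28.6% of 7 to 22 reads in CT. The other strand was measured at all 7 and called at none. At 89981376, 89981402 and 89981408 the depths were 64 and 22 reads, against 32 and 11 at 89981359 on the same strand. Likewise, the promoter sites 89980118 and 89980153 had 90 and 26 reads, against 45 and 13 at 89980109. Whether reads were counted more than once there was not tested, and the p would then be too small. Near the end of the gene, at chr7:89954957-89955023 in a coding exon, 3 of 4 sites were higher, at 90.3 to 100% in E3 against 29.4 to 58.8% in CT. The site at 89954976 had the smallest p of the members, with 100% of 62 reads in E3 and 29.4% of 34 in CT (adjusted p = 5.5e-11, Fisher's exact test). On the opposite strand the levels were 90.5% of 42 reads in E3 and 100% of 10 in CT. The neighbouring site at 89954957 had 90.3% of 31 and 47.1% of 17 reads. The site at 89955023, on the same strand, also had 31 reads in E3 and 17 in CT, against 62 and 34 at 89954976 between them. Whether reads were counted more than once at 89954976 was not tested, and its p would then be too small. A lower site in the untranslated exon, at 89954833, had 73.0% of 37 reads in E3 and 100% of 16 in CT.

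Suz12 had 9 higher sites and 1 lower. Upstream of the start, 6 of them formed a pair of runs. At chr11:79992871-79992955, 3 of 25 sites had 17.4 to 23.5% of 23 to 34 reads in E3 and 0% of 18 to 28 in CT, and the other strand had no call. Farther out, at chr11:79992108-79992336, 3 of 6 sites had 27.3 to 80% in E3 and 0 to 46.2% in CT. The largest difference there was at 79992277, with 50.0% of 32 reads in E3 and 0% of 11 in CT (adjusted p = 0.074, Fisher's exact test), with 56.3% of 32 and 30.8% of 13 on the other strand. An intronic site at 80004789 had 96.9% of 32 reads and 54.5% of 11. The lower site, in a coding exon at 79993434, had 0% of 10 reads in E3 and 70.6% of 17 in CT (adjusted p = 0.018, Fisher's exact test), and its other strand had 0% in both libraries.

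Jarid2, the longest of the genes, had 14 higher and 11 lower sites. A run of 8 higher sites in an intron, at chr13:44869635-44869859 on the plus strand, had 75 to 90.8% of 12 to 98 reads in E3 and 0 to 40.0% of 5 to 11 reads in CT. The other strand was measured at 7 of these sites and was not called at any. It had 80 to 100% in CT at the sites of this run. The site at 44869639 in it had 83.3% of 12 reads and 27.3% of 11. In the untranslated part of the last exon, at chr13:44921218-44921497, 4 sites were lower, at 21.6 to 71.4% in E3 and 73.3 to 100% in CT, among them 44921486 with 37.1% of 35 and 73.3% of 15 reads. A coding exon site at 44914839 had 91.7% of 48 reads in E3 and 33.3% of 12 in CT (adjusted p = 0.0056, Fisher's exact test), and its other strand 75% of 16 and 66.7% of 18. At 44848412, also coding, E3 had 70.6% of 34 reads and CT 100% of 29 (adjusted p = 0.040, Fisher's exact test).

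Bmi1 had 4 higher and 3 lower sites. Its 100 promoter sites had 2 calls, both lower in E3. Farther in, sites at 18681116 and 18681163 of chromosome 2 had 38.9% of 36 and 34.2% of 38 reads in E3 and 0% of 14 and of 10 in CT, with 0% in both libraries and 13.0% against 42.9% on the other strand. The upstream part of the Bmi1 region borders Commd3, which ends within it.

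Cbx2 had 3 higher sites, which formed a run in a coding exon at chr11:119028908-119028977, and 1 lower. The run had 70.4 to 100% of 27 reads in E3 and 31.3 to 81.3% of 16 in CT, and the other strand was not measured there. The ends of the run had 70.4% against 31.3% at 119028908 and 100% against 68.8% at 119028977. The lower site, upstream at 119022792, had 0% of 40 and 30.8% of 13 reads. The antisense lncRNA Gm35829 overlaps the start of Cbx2, and strand in these data is that of the CpG and not of a transcript.

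Cut sites and repeats were compared because the assay reads DNA next to the enzyme sites. In member sites that lay in a TaqαI site (TCGA), 16.9% of 118 were called, against 14% over all such sites. For MspI sites (CCGG) the shares were 10% of 120 and 11.1%, and elsewhere 6.17% of 1054 and 10.5%. TaqαI sites were 9.13% of member sites and 12.4% of all sites. Named sites in TaqαI sites include 101208222 (Ezh1), 47593842 and 47551765 (Ezh2), 89954833 (Eed), 44848412 (Jarid2) and 151499668 (Rnf2). Sites masked as repeats in the RefSeq genome made up 10.1% of member sites and 18.2% of all sites. Of these, 14 of 131 member sites (10.7%) were called, against 9.47% over all masked sites.

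In the frontal cortex, where the table holds called sites only and the depth is unknown, 2 CpGs of the members were listed and both were lower in E3. Of all 9731 listed CpGs 63.7% were lower and 36.3% higher. In Ezh2, the CpG at 47594210 of chromosome 6, named as promoter and intron, 1060 bases after the start and in a CpG island, had 5.26% in E3 and 22.2% in CT. The hippocampus had 2.56% of 39 reads in E3 and 0% of 9 in CT at the same CpG with strands summed, and no call. Of 24 hippocampus CpGs within 500 bases of it, 2 were called, both lower and both in the intronic run. In Cbx2, the CpG at 119024114 of chromosome 11, in an intron 1095 bases after the start, had 7.84% in E3 and 21.3% in CT. It was not measured in the hippocampus, where the nearest of 7 CpGs within 500 bases lay 152 bases away and all 7 were at 0% in CT and at 0 to 28.6% in E3, with no call. The other 7 genes had no listed CpG under their names. By position, 1 more listed CpG fell in the last exon of Cbx8, at 119037572, and was not assigned to it by the table. It had 22.6% in E3 and 2.56% in CT, and in the hippocampus 36.0% of 25 and 15.4% of 13 reads without a call (p = 0.27, Fisher's exact test).

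The other genes of the Polycomb system gave a comparison, with 33 further subunits and opposing enzymes. Of their 6111 hippocampus sites 658 were called (10.8%), 251 higher and 407 lower in E3. Over all CpG sites 11.0% were called, 6.18% higher and 4.83% lower. Bcor, a corepressor of a variant PRC1 on chromosome X, had 186 called of 1075 sites, 149 of them lower. Auts2 had 122 of 900, Phc2 39 of 248 and Kdm2b, which brings PRC1 to CpG islands, 33 of 318. Of 31 promoters tested, 2 were called, both lower in E3, against 9.67% of all promoters called in either direction. Bcor had 9.36% and 20.6% (adjusted p = 1.0e-10, Fisher's exact test), and Aebp2, an accessory subunit of PRC2, had 18.0% and 36.2% (adjusted p = 2.5e-08, Fisher's exact test). In the frontal cortex 13 of these genes had 61 listed CpGs, 57 lower and 4 higher, with 41 lower ones in Bcor. Of all listed CpGs 63.7% were lower.

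**Figure D5:**
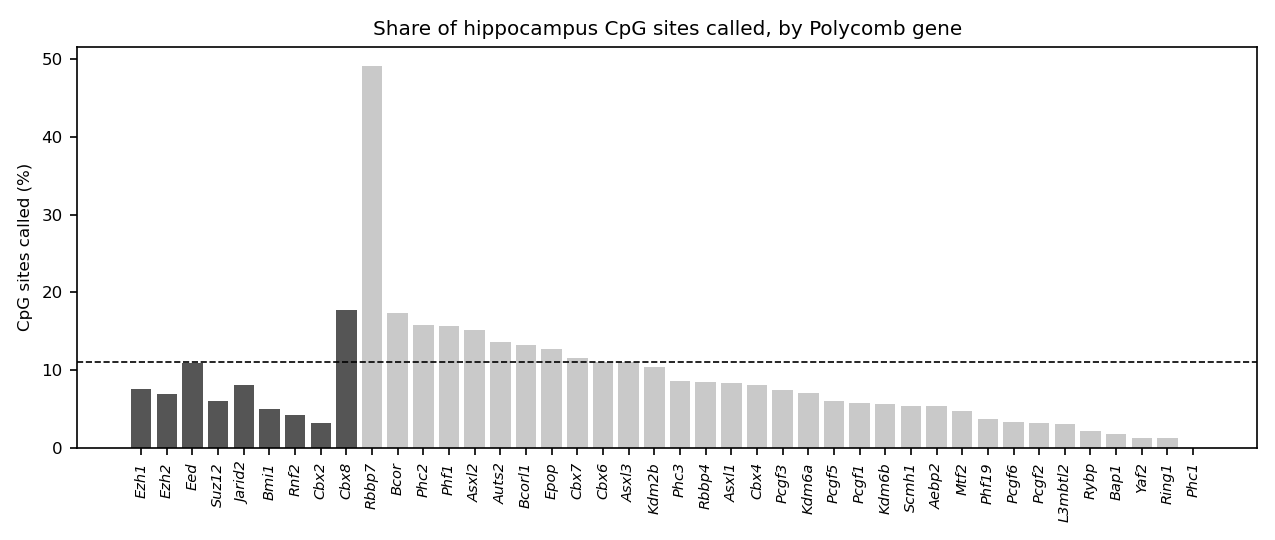
Share of hippocampus CpG sites called in percent (y axis) for the 9 genes (dark bars) and the 33 other Polycomb genes (light bars, sorted), with a dashed line at the 11.0% of all CpG sites. Of the 9 genes, Cbx8 alone lay above the line.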

How the data were processed

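Genomic DNA of 4 libraries, 1 per tissue and treatment, was analysed. The authors ran Methyl-MiniSeq with TrimGalore, Bismark on mm10 and MethylDackel. For the hippocampus their deposited table gives the total read count of each CpG strand and the methylated fraction to 2 decimals. For the frontal cortex the deposited table gives the methylated fraction at called CpGs only, without depth. Both tables also hold the authors' own differences and p-values, which were not used. CHG and CHH sites were not used here.

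Methylated counts are the product of fraction and total, rounded to whole reads, which can be off by a read at sites with over 100 reads. Sites with at least 5 reads in both libraries were compared by a 2-sided Fisher's exact test (Python 3.11.15, scipy 1.17.1, numba 0.67.0), tested on simulated data. Called sites had p under 0.05, unadjusted, and a gap of 10 points or more. Adjusted p-values are Benjamini-Hochberg values over all 2226271 sites or 20169 promoters. Genes, sequences and repeat masking came from RefSeq (GRCm38.p6), in which all 9 members matched. A gene start is the outer end of the gene.

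The members and lists were chosen with earlier results of these data known. Named are, per gene, up to 2 higher and 2 lower called sites with the largest differences and at least 10 reads in both libraries, runs of at least 3 called sites within 200 bases, all frontal cortex CpGs of members, and of the other Polycomb genes the 4 with the most called sites and those with a called promoter. Single sites of Rnf2 (151477604, 151499668), the other-strand values and the repeat counts were added after their values were seen. So were the depths of neighbouring sites and the frontal cortex CpG found by position. A site that the rule takes is not reported here. Alternatives changed the read minimum, the difference, the p-value, strand handling, promoter definition and averaging.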

Additional observations from a re-analysis of the deposited data

Results flagged for a closer look

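The Ezh2 CpG at 47594210 of chromosome 6 was listed as lower in E3 in the frontal cortex and showed no such difference in the hippocampus. The frontal cortex had 5.26% in E3 and 22.2% in CT. In the hippocampus the sign was opposite, at 2.56 points, but this rests on 1 methylated read of 39 in E3 against 0 of 9 in CT (p = 1, Fisher's exact test). The difference between the tissues was not tested, and each group had 1 library.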

How the results depend on the processing

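The main results were recomputed under the alternatives, which gave 91 values. Of these, 76 were classed as unchanged, 14 as moved and 1 as reversed. Promoter values were judged by direction or call, and counts by a limit of 1.5 times the count reported. Values outside the promoter, which have no test, were judged by the mean width of the Wilson intervals on their summed reads. Of 108 recomputed counts for single genes, 62 stayed within 1.5 times the count reported. A minimum of 10 reads left 26 lower member sites, and one of 20 reads left 10 higher and 11 lower. With adjusted p-values 16 were higher and 9 lower. The share of member sites called stayed under that of all sites in each of these settings (9.26% and 14.1% with 10 reads, 11.1% and 18.4% with 20 reads, 6.27% and 9.97% with 25 points, 7.29% and 12.1% with strands summed). The Bmi1 promoter turned to 0.47 points higher in E3 when every transcript start was used. Outside the promoter, summing reads gave -14.2 points in Ezh2 and 22.8 in Rnf2. With at least 20 reads the differences were 26.2 points in Eed (4 sites), -11.4 in Suz12 (1 site), -3.17 in Jarid2 (37 sites), 32.0 in Bmi1 (1 site) and 19.7 in Cbx8 (4 sites). In the frontal cortex 1 higher CpG was found by coordinates, and 0 lower ones differed by 25 points. The causes of these shifts were not tested, beyond the fewer sites that pass a higher read minimum. The frontal cortex alternative with adjusted p-values was not run, since the authors' comparison columns were not used. No paired analysis was possible because each group had 1 library.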
